A study of Canis lupus familiaris with 12 samples.

Results

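CCL2, CCL7, CCL8 and CCL13, the monocyte chemoattractants of the CC chemokine family, were followed in acid-treated kidney epithelial cells. They were found as every gene probe whose accession on the array is a RefSeq transcript of the dog genes, dim probes included. This gave 4 genes with 1 probe each, of 944 genes of the array that could be given a symbol. The probes of CCL2 (NM_001003297), CCL7 (NM_001010960) and CCL8 (NM_001005255), were bright enough for the test, and the CCL13 probe (NM_001003966) was not. The groups were Madin-Darby canine kidney (MDCK) cells kept for 24 h in medium of pH 7.0, made by lowering its bicarbonate, and MDCK cells kept for 24 h in medium of pH 7.4. Both groups had been grown to confluence with serum and then moved to serum-free medium for 24 h. MDCK is 1 epithelial line from dog kidney tubule, so the replicates are repeats in 1 line. Each of 3 biological replicates gave 1 RNA extract from pH 7.0 and 1 from pH 7.4, and each extract was hybridised to 2 one-colour Agilent arrays, 6 arrays per group.

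Chemokines are small secreted proteins that bind receptors on leukocytes and direct their migration along a gradient. CCL2, CCL7, CCL8 and CCL13 are known, mainly from work on human cells, to attract monocytes through the receptor CCR2, and CCL7, CCL8 and CCL13 also bind other CC receptors. Tubule epithelium makes CCL2 when it is injured or inflamed, and CCL2 is known for bringing monocytes and macrophages into the kidney interstitium. In the RefSeq annotation of the dog assembly UU_Cfam_GSD_1.0 the 4 genes lie next to each other on chromosome 9, in the order CCL13, CCL8, CCL7, CCL2, with CCL1 before CCL13.

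The series asked what acid medium does to cytokine genes of inflammation. Levels are Cy3 intensities on the log2 scale, set relative to the 75th percentile of each array, so that 0 is the level of that percentile, and the duplicate arrays of an extract were averaged. A change is the pH 7.0 level less the pH 7.4 level of the same biological replicate, in log2 units, and its standard error comes from a limma fit over all 27138 probes tested. The 4 arrays of a biological replicate shared 1 slide and 1 scan date, so slide and biological replicate cannot be told apart. The scanner software called between 49.4% and 70.4% of probes well above background, depending on the array. The slide of biological replicate 2 stood apart: the median raw signal of its 153 negative control spots was 86 to 106, against 28.5 to 33 on the other slides. Signals of different probes were compared only for brightness and detection, and not as amounts of RNA of different genes. As RNA came from whole cultures, a change in the number of producing cells and a change in RNA per cell cannot be told apart.

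CCL2, the best known of the monocyte attractants, was read far above background on all 12 arrays and was saturated on 0. Its processed signal averaged 8195, 28872 and 23488 in the pH 7.0 extracts of biological replicates 1 to 3, against 5398, 5093 and 8271 in the pH 7.4 extracts. On the log2 scale these were 3.42, 5.99 and 5.17 at pH 7.0 and 2.70, 3.18 and 3.79 at pH 7.4, with means of 4.86 ± 1.31 at pH 7.0 and 3.22 ± 0.55 at pH 7.4 (SD, n = 3 extracts each). The pH 7.0 extract was the higher one in every biological replicate, and within each slide both pH 7.0 arrays lay above both pH 7.4 arrays. The groups as a whole overlapped, because the pH 7.0 extract of biological replicate 1 was below the pH 7.4 extract of biological replicate 3.

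The CCL2 changes were 0.73, 2.81 and 1.38 in the 3 biological replicates, which is 1.65-fold, 7.00-fold and 2.60-fold. Biological replicate 2 therefore gave the widest separation and biological replicate 1 the narrowest. The duplicate arrays of 1 extract differed by 0.13 to 0.47, which is technical spread only. The limma estimate was 1.64 ± 0.35 (n = 3 pairs), or 3.11-fold with a 95% interval of 1.80 to 5.39, and its unadjusted p was 0.00103. It did not pass over all probes, with a Benjamini-Hochberg adjusted p of 0.136 in limma. The call depended on single replicates: adjusted p was 0.00471 without biological replicate 1, where the change was 2.09, 0.106 without biological replicate 2, where it was 1.05, and 0.400 without biological replicate 3, where it was 1.77.

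CCL8, which attracts monocytes and also acts on other leukocytes, was likewise well above background on all 12 arrays. Its log2 level was -0.35, 2.22 and 1.58 in the pH 7.0 extracts of biological replicates 1 to 3 and -1.59, -0.60 and -0.058 in the pH 7.4 extracts. The means were 1.15 ± 1.34 at pH 7.0 and -0.75 ± 0.78 at pH 7.4 (SD, n = 3 extracts each). In processed signal the extracts had 602, 2114 and 1947 at pH 7.0, against 277, 369 and 573 at pH 7.4. Again the pH 7.0 extract was higher in each biological replicate and on each slide both pH 7.0 arrays exceeded both pH 7.4 arrays, while the groups overlapped through the low pH 7.0 extract of biological replicate 1.

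The CCL8 changes were 1.24, 2.82 and 1.64, or 2.36-fold, 7.07-fold and 3.11-fold. They were the most even of the 3 tested genes, with a standard deviation of 0.82 over the biological replicates, against 1.07 for CCL2 and 2.28 for CCL7. Duplicate arrays differed by 0.059 to 0.63. The limma estimate was 1.90 ± 0.31, or 3.73-fold with a 95% interval of 2.32 to 6.01. CCL8 had the lowest p of the 4 genes, 0.000117 unadjusted and 0.0754 adjusted over all probes in limma, which is still above 0.05. The adjusted p was 0.00223 without biological replicate 1 (change 2.23), 0.00757 without biological replicate 2 (change 1.44) and 0.226 without biological replicate 3 (change 2.03). Over the 21007 probes well above background on all 12 arrays, CCL8 and CCL2 passed with limma adjusted p of 0.0179 and 0.0473, with the changes as above. In that fit 90 of the 21007 probes were called higher and 44 lower, and CCL7 was not among the probes fitted.

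CCL7, an attractant of monocytes that also acts on eosinophils and basophils, was dimmer. All 6 arrays at pH 7.0 detected it above background, and 4 of the 6 at pH 7.4 did, the exceptions being both pH 7.4 arrays of biological replicate 2. The log2 level was -2.42, -1.03 and 0.40 in the pH 7.0 extracts and -3.94, -6.45 and -1.03 in the pH 7.4 extracts of biological replicates 1 to 3. The corresponding processed signals were 143, 222 and 858 at pH 7.0, against 54.3, 6.40 and 292 at pH 7.4. Every pH 7.0 extract was higher than its own pH 7.4 extract, and on every slide both pH 7.0 arrays exceeded both pH 7.4 arrays. Across replicates the levels spread widely, with means of -1.02 ± 1.41 at pH 7.0 and -3.81 ± 2.71 at pH 7.4 (SD, n = 3 extracts each), and the groups overlapped.

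The CCL7 changes were 1.52, 5.42 and 1.43 in the 3 biological replicates, or 2.86-fold and 2.69-fold in biological replicates 1 and 3. The size in biological replicate 2 is not a measured fold, since its pH 7.4 side was at background. There the raw signal of the CCL7 spots was 302 and 303 on the pH 7.0 arrays and 105 and 120 on the pH 7.4 arrays, whose negative controls had medians of 103 and 106. With the 2 dim spots raised to the lowest signal among probes above background on their arrays, the change in that replicate was 4.41, or 21.3-fold. This value sets no limit on the change, since a spot that was not detected can lie above that lowest signal. It also holds for the scanner software's own background only. The limma estimate over the 3 pairs was 2.79 ± 0.64, with an unadjusted p of 0.00149 and an adjusted p of 0.150.

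The CCL7 estimate varied with the treatment of background far more than those of CCL2 and CCL8. With the dim spots raised as above it was 2.45 ± 0.50, and without biological replicate 2 it was 1.47 ± 0.36. Without biological replicates 1 and 3 in turn it was 3.43 ± 0.56 and 3.47 ± 0.72. The limma adjusted p was 0.00552 without biological replicate 2, a fit in which CCL2, CCL7 and CCL8 all had the SE of 0.36 pooled over probes, 0.00567 without biological replicate 1 and 0.245 without biological replicate 3. With the normexp background method on the local backgrounds as given it was 0.69 ± 0.41, and the change in biological replicate 2 was -0.084. With local backgrounds marked as outliers set to the array's median, the same method gave 1.41 ± 0.23, and biological replicate 2 gave 2.09. In biological replicates 1 and 3 the changes were 0.93 and 1.21 as given, so CCL7 was higher at pH 7.0 in those by all 3 background methods.

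**Figure D1:**
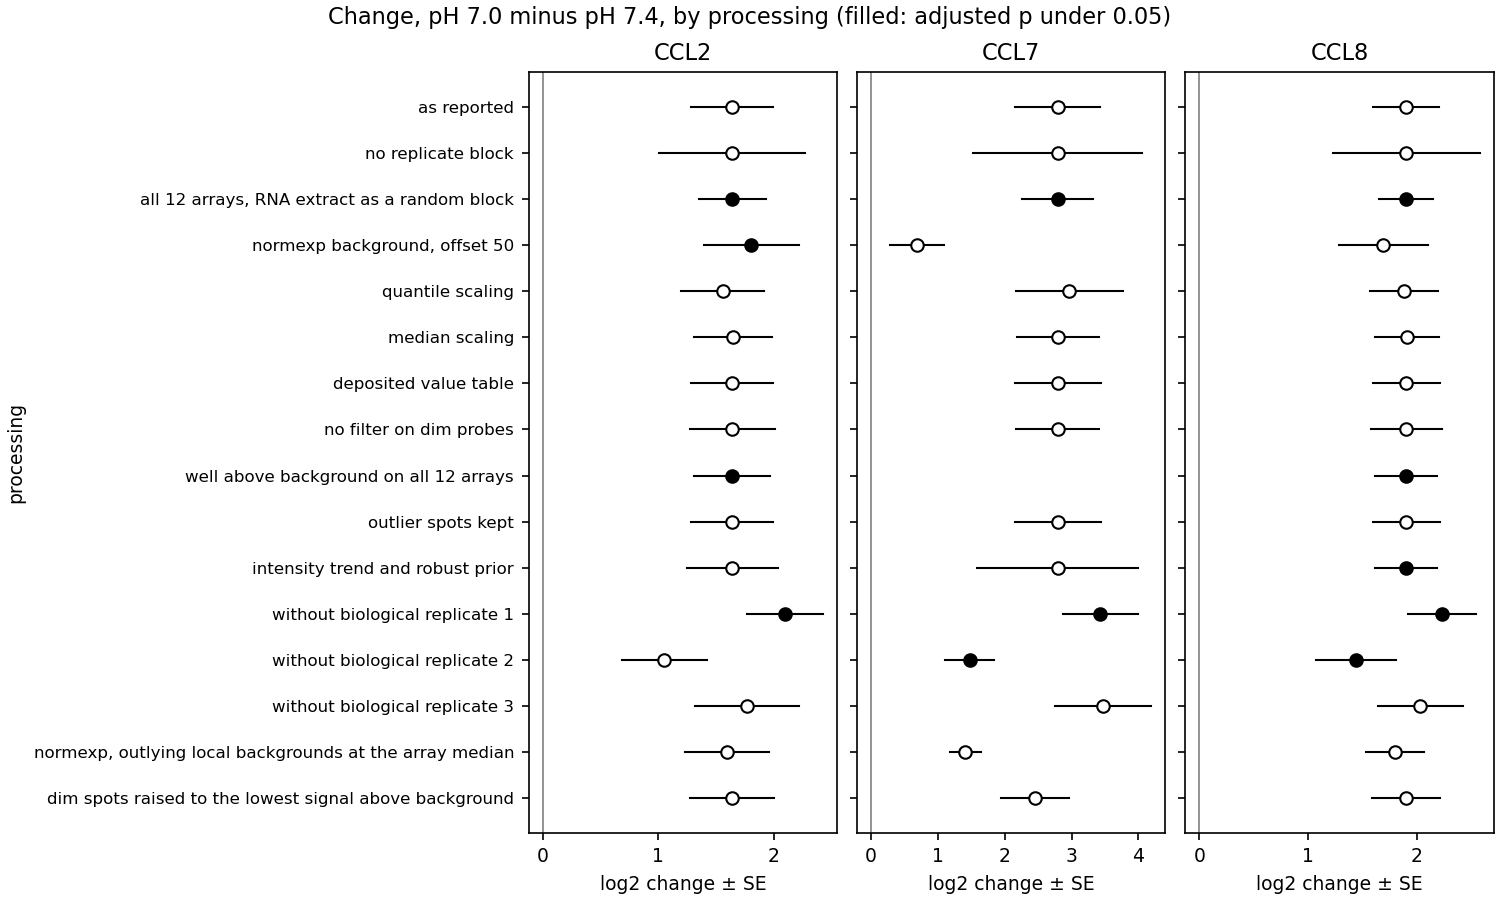
Log2 change ± SE, pH 7.0 minus pH 7.4 (x axis, own scale for each gene), of CCL2, CCL7 and CCL8 under each way of processing (y axis); filled circles have a limma adjusted p under 0.05, and CCL7 has no value with the filter on all 12 arrays. Every estimate is above 0, and CCL7 has the widest range, from 0.69 with normexp on the backgrounds as given to 3.47 without biological replicate 3.

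CCL13, in human cells a ligand of CCR2 and CCR3, was detected above background by 0 of the 6 pH 7.0 arrays and by 0 of the 6 pH 7.4 arrays. Its processed signal ran from 1.63 to 6.75 at pH 7.0, with a median of 2.95, and from 1.78 to 5.98 at pH 7.4, with a median of 2.11. These signals are of the size of the negative control spots, whose medians ran from 1.52 to 6.87 at pH 7.0 and from 1.84 to 6.06 at pH 7.4. No fold is given, because neither group was well above background on any array. In a fit of all 43603 probes the difference was 0.28 ± 0.26 (limma adjusted p = 0.902), and it differed in sign between biological replicates, at -0.041, 0.31 and 0.56.

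**Figure D2:**
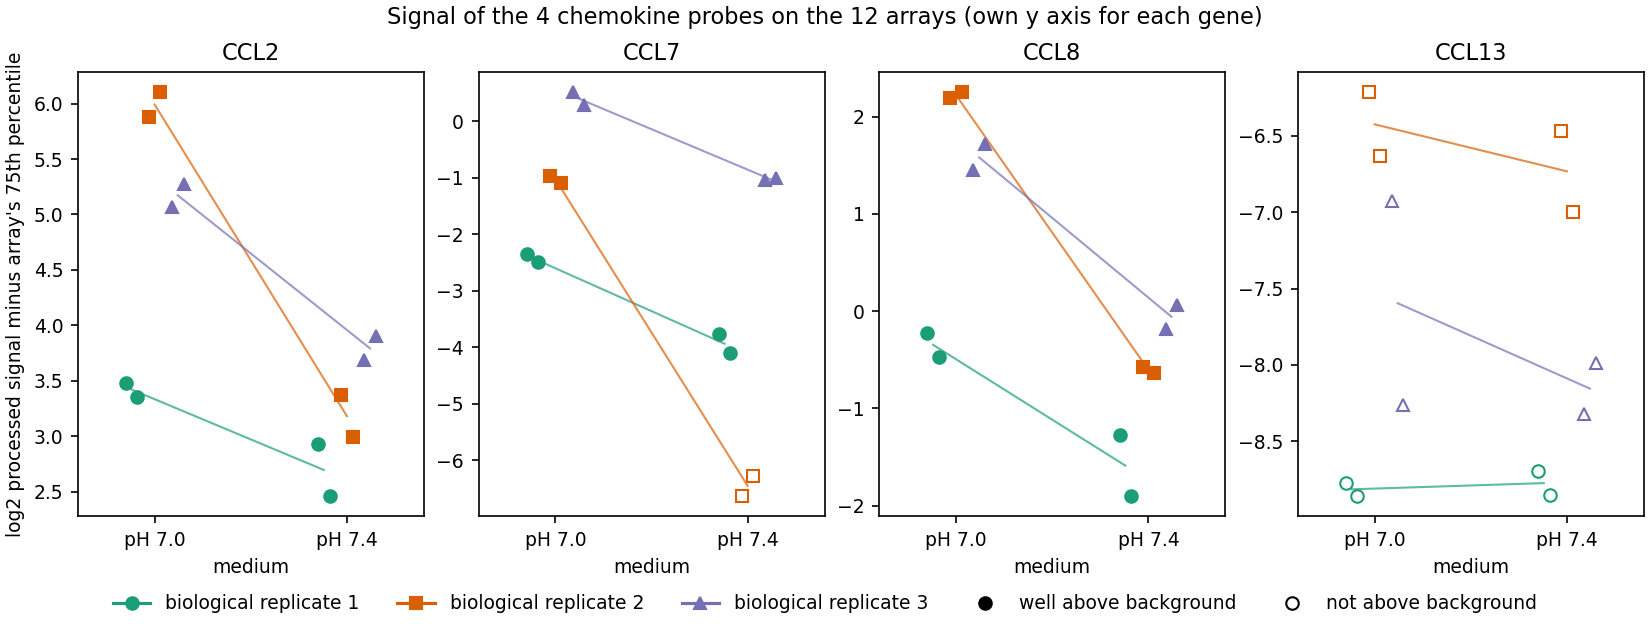
Level in log2 units relative to the 75th percentile of the array (y axis, own scale for each gene) at pH 7.0 and pH 7.4 for CCL2, CCL7, CCL8 and CCL13; each symbol is 1 array, lines join the extract means of a biological replicate, and open symbols were not well above background. CCL2, CCL7 and CCL8 are higher at pH 7.0 in each of the 3 biological replicates. CCL7 is not well above background on both pH 7.4 arrays of biological replicate 2, nor is CCL13 on any of the 12 arrays.

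Set against all probes of the array, CCL2, CCL7 and CCL8 stood near the upper end, without passing the threshold. None had an adjusted p under 0.05 in limma, 0 of 3, and neither did any other probe (0%), while 1758 probes were higher and 1566 lower at an unadjusted p under 0.05. At an adjusted p under 0.10, 1 of 3 was called higher, CCL8, against 0.177% of all tested probes. At an unadjusted p under 0.05, 3 of 3 were higher, against 6.48%. A log2 change over 1 was seen in 3 of 3, against 1.10%. All 3 were higher in every biological replicate, as were 18.0% of the tested probes. Their extract groups were free of overlap in 0 of 3, against 4.48%. CCL7 reached the minimum of 6 arrays for the test with its pH 7.0 arrays alone, so its place among the tested genes is not independent of its direction, while CCL2 and CCL8 were detected on every array.

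By the size of the estimate CCL7 ranked 3, CCL8 ranked 22 and CCL2 ranked 49 of the 27138 tested probes, though the CCL7 estimate includes the replicate at background and was 1.47 without it. By p they ranked 269, 41 and 203. Within single biological replicates, CCL7 had the greatest positive change of all tested probes in biological replicate 2 (rank 1), its pH 7.4 side being at background there, and CCL8 and CCL2 ranked 30 and 31. In biological replicate 3 the ranks were 134 for CCL8, 269 for CCL7 and 317 for CCL2, and in biological replicate 1 they were 137 for CCL7, 310 for CCL8 and 1805 for CCL2. Over all tested probes biological replicate 2 was not the widest: its standard deviation of the log2 change was 0.49, against 0.60 and 0.59 in biological replicates 1 and 3. The number of probes with a change over 1, higher at pH 7.0, was 687, 930 and 1154 in biological replicates 1 to 3. An exact sign-flip permutation test of the 3 pairs gave a two-sided p of 0.25 for CCL2, CCL7 and CCL8, which is the smallest that 3 pairs allow.

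**Figure D3:**
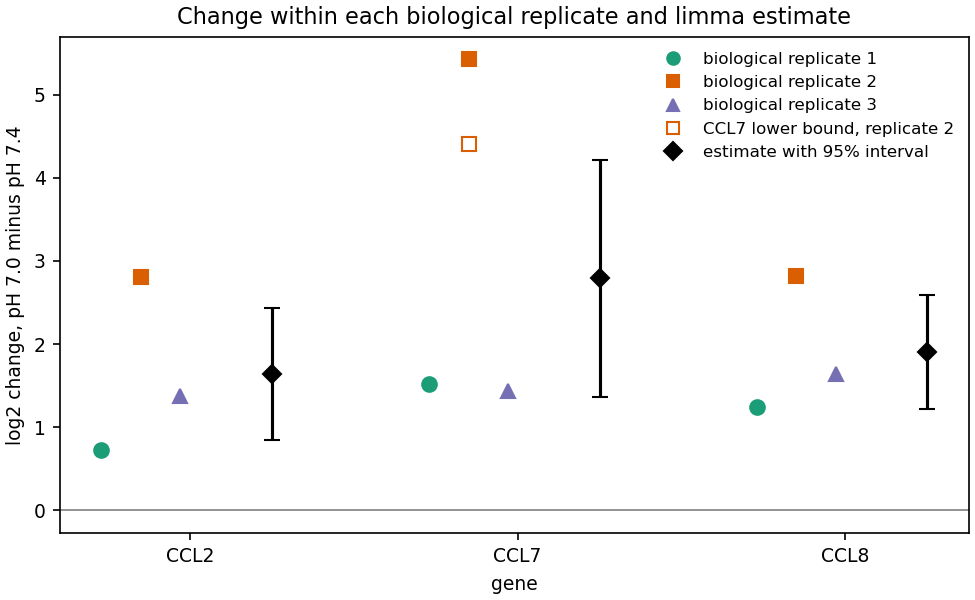
Log2 change, pH 7.0 minus pH 7.4 (y axis), for CCL2, CCL7 and CCL8. Coloured symbols are the 3 biological replicates, and diamonds with bars are limma estimates with 95% intervals (n = 3 pairs). The open square, labelled lower bound, is CCL7 in biological replicate 2 with its dim spots raised, and is not a limit on the change. All symbols lie above 0, and biological replicate 2 is the highest for each gene.

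The changes of CCL2 and CCL8 were closest to each other in biological replicate 2 and furthest apart in biological replicate 1. The change of CCL8 exceeded that of CCL2 by 0.52, 0.014 and 0.26 in biological replicates 1 to 3, a mean of 0.26 ± 0.25 (SD, n = 3). CCL7 exceeded CCL8 by 0.28 and 2.60 in biological replicates 1 and 2 and the difference was -0.21 in biological replicate 3. The difference between CCL7 and CCL2 was 0.79, 2.62 and 0.050. Away from biological replicate 2, where CCL7 was at background at pH 7.4, the 3 genes thus differed from each other by at most 0.79 on the log2 scale.

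The likeness of their patterns was also described over the 6 extracts, by Pearson's r of the log2 level with 563 other named genes. Each gene stood by its brightest tested probe, and genes with that probe saturated on any array were left out. The extracts share slides in pairs, so r follows differences between biological replicates as well as those between pH 7.0 and pH 7.4. The gene most like CCL2 was CCL8 (r = 0.992, n = 6 extracts), followed by ZP2, an egg coat glycoprotein gene (0.976), and CCL28, a mucosal chemokine (0.973). For CCL8 the order was CCL2, CCL28 (0.988) and ZP2 (0.977). The difference between pH 7.0 and pH 7.4 was 1.18, 1.91 and 1.05 for CCL28 and 1.17, 2.46 and 1.10 for ZP2 in biological replicates 1 to 3, without passing over all probes. Both had their widest separation in biological replicate 2, as CCL2 and CCL8 did. The median r over the compared genes was 0.142 for CCL2 and 0.158 for CCL8.

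CCL7 had other neighbours. The genes most like it were CD40, a receptor of the tumour necrosis factor receptor family (r = 0.977), HLA-DRB1, an MHC class II chain (0.954), and CEACAM1, a cell adhesion molecule (0.929), with a median r of 0.310 over the compared genes. Their estimates of 0.86 ± 0.26, 0.58 ± 0.23 and 0.49 ± 0.22 did not pass over all probes (limma adjusted p = 0.234, 0.360 and 0.411). CCL2 and CCL8 came only at places 81 and 87 in the order of likeness to CCL7, with r of 0.707 and 0.699. The CCL7 pattern contains the pH 7.4 extract of biological replicate 2, whose level was at background.

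Other CC chemokine genes were looked at from a list of 19. A probe was matched for 13 of them and 6 were bright enough for the test. The estimates of these 6 were above 0, with a median of 0.68. Over all tested probes the median was 0.011, and 13921 of 27138 were above 0. Over the 599 tested named genes, each by its brightest probe, the median was 0.077, and 363 were above 0. CCL5 and CCL28 were detected by all 6 pH 7.0 arrays, enough for the minimum, but by only 4 of the 6 pH 7.4 arrays. The count of 6 above 0 is therefore not independent of the direction. Without the filter on dim probes 7 of the 13 were above 0 and 6 below, with a median of 0.14. Of the 6 tested genes 3 were higher in all 3 biological replicates, and CCL20, which attracts dendritic cells and lymphocytes, was at -0.42, 2.43 and -0.65. At an unadjusted limma p under 0.05, 2 were higher, and 0 passed after adjustment over all probes. These 2 were CCL28 (1.38 ± 0.25, adjusted p = 0.102) and CCL4, a macrophage inflammatory protein (1.37 ± 0.29, adjusted p = 0.128; 0.52, 1.89 and 1.69 by biological replicate). The smallest estimate of the 6 was that of CCL17 at 0.25, with a probe saturated on 2 of 12 arrays. The gene next to the cluster, CCL1, was detected by 0 of the 6 pH 7.0 arrays and by 1 of the 6 pH 7.4 arrays. CCL3, a close relative of CCL4, was likewise detected by 0 and 1. The list and its members were chosen with earlier results of these data known.

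**Figure D4:**
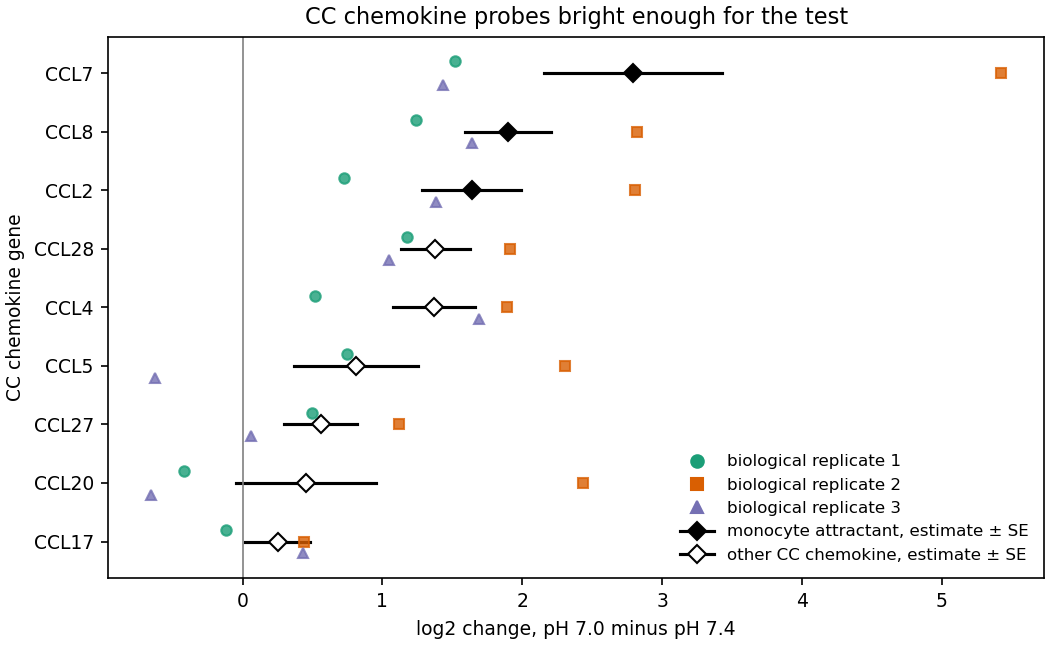
Log2 change, pH 7.0 minus pH 7.4 (x axis), of the 9 CC chemokine genes bright enough for the test; coloured symbols are biological replicates, diamonds with bars are limma estimates ± SE (n = 3 pairs), filled for the monocyte attractants. CCL7, CCL8 and CCL2 have the 3 highest estimates, from 2.79 to 1.64, and CCL17 the lowest at 0.25. They are also the 3 highest in biological replicate 2, where CCL7 was at background at pH 7.4. In biological replicate 1 CCL28 (1.18) is above CCL2 (0.73), and in biological replicate 3 CCL4 (1.69) is above all 3.

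Receptors differed in whether they were detected. Of 14 receptor genes in the list, 6 had a matched probe and 2 were bright enough for the test, 1 of them higher and 1 lower, with 0 at an unadjusted limma p under 0.05. CCR1, a receptor for CCL7 and CCL8, was detected by 0 of the 12 arrays. CCR3, a receptor for CCL7 and CCL13, was detected by 0 of the pH 7.0 arrays and by 1 of the pH 7.4 arrays, and CCR4, a receptor for CCL17, by 3 pH 7.0 and 2 pH 7.4 arrays. The tested receptors were ACKR3, a scavenger receptor for CXCL12 (0.23 ± 0.22, detected by all 12 arrays and saturated on 1), and CXCR3, a receptor for interferon-induced chemokines (-0.017 ± 0.22, detected by 4 pH 7.0 and 5 pH 7.4 arrays). CCR2, the main receptor for CCL2, had no matched probe and was not analysed here.

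Among 31 genes of the signals known to switch these chemokines on, 11 had a matched probe and 4 could be tested, 2 higher and 2 lower, with a median change of 0.20. CSF2, the growth factor GM-CSF, was the only one of these 4 with an unadjusted limma p under 0.05, at 3.11 ± 0.38 (adjusted p = 0.0502). Tumour necrosis factor, TNF, stood at -0.096 ± 0.22 and the NF-kappaB subunit NFKB1 at 0.50 ± 0.23. IL1B and IFNG, the genes of interleukin 1 beta and interferon gamma, were detected by 0 of the 12 arrays, and IL1A, interleukin 1 alpha, by 5 of the pH 7.0 and 0 of the pH 7.4 arrays. Of 9 genes of proteases that trim chemokines and their inhibitors, 4 had a probe and 3 were tested. All 3 estimates were above 0, as were those of 363 of the 599 tested named genes. Only 1 of the 3, TIMP2, was higher in every biological replicate. At an unadjusted limma p under 0.05, 1 was higher, the gelatinase MMP9. Its brightest probe was saturated on 6 of 12 arrays, so that no fold is given. Of 12 other genes of monocyte recruitment 3 had a probe, namely CXCL12, VCAM1 and SELE, and 0 were bright enough.

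Epithelial markers were detected, and so were some markers of other cell types. Of 10 tubule epithelium markers 4 had a probe, and the tight junction genes OCLN, CGN and TJP1 were detected by all 12 arrays. Of these 4 markers 3 were higher and 1 lower, and only the claudin CLDN2 had an unadjusted limma p under 0.05, at 1.15 ± 0.29 (adjusted p = 0.174), detected by 5 of the pH 7.0 and 3 of the pH 7.4 arrays. Monocyte and macrophage markers were represented by CD163 and CD4 alone, 2 of 12. Both CD163 probes were detected by 0 of the 12 arrays. The CD4 probe, whose signal ran from 3.64 to 31.4 at pH 7.0 and from 1.71 to 38.5 at pH 7.4, was detected by 3 pH 7.0 and 2 pH 7.4 arrays. Of 7 lymphocyte markers CD8A and MS4A1 had probes, and only CD8A was tested, at -0.0093 ± 0.23. Of 7 fibroblast markers 4 had a probe and 3 were tested, with a median change of -0.014, and the collagen genes COL1A1 and COL1A2 were detected by all 12 arrays. Of 5 endothelial markers only VWF was tested, at 0.17 ± 0.31, and it too was detected by all 12 arrays, with signals of 857 to 2055 at pH 7.0 and 813 to 2409 at pH 7.4. The part of other cell types in the CCL2, CCL7 and CCL8 changes was not tested beyond these markers.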

How the data were processed

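Cy3-labelled cRNA of MDCK cells was read on one-colour Agilent dog arrays, per the labels' protocols. The authors deposited scanner files made with Agilent Feature Extraction 10.7.3.1, per the submitters' processing notes, which hold Cy3 intensity per spot. The authors also deposited a table of log2 values, whose scale and centring are not stated; set against the scanner values, it was found to be the processed signal on the log2 scale relative to the 75th percentile, centred on the probe median, with a slope of 1.00 on each array. Arrays 1 to 6 at pH 7.0 had medians of -0.112, -0.150, 0.225, 0.213, -0.226 and 0.0169 in it. Arrays 1 to 6 at pH 7.4 had 0.0200, -0.211, 0.213, 0.0789, -0.0860 and 0.0652.

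The scanner files' processed signal was put on the log2 scale and set relative to each array's 75th percentile, without control spots and 128 outlier spots. A probe was tested when well above background on at least 6 of 12 arrays. Arrays 1 and 2, 3 and 4, and 5 and 6 of a group were the duplicates of biological replicates 1, 2 and 3, taken from title numbers and deposited file names. limma 3.58.1 (R 4.3.3) fitted the 6 extracts with biological replicate as a block, moderated, two-sided, Benjamini-Hochberg adjusted over all tested probes. Of these, 1 had a missing extract. The series design pairs the extracts of a biological replicate. Across probes the paired extracts' deviations from their group means had r of 0.394, 0.637 and 0.807. For extracts of different biological replicates r ran from -0.628 to 0.255. Paired extracts also shared a slide, so r cannot tell pairing of the cultures from the slide. Only 3 pairs limit the precision, and the extracts are of 1 line. The moderated SEs, intervals and p-values rest on a spread pooled over all tested probes as well as on a gene's own pairs (9.67 degrees of freedom). The SD of the change over the 3 pairs was 1.07 for CCL2, 2.28 for CCL7 and 0.82 for CCL8. Their limma SEs and intervals are therefore narrower than their own pairs alone would give. The fit was also run on data simulated from its own fitted means and spread. Such data cannot test how the fit handles spots at background or differences between slides. Python 3.11.15 with matplotlib 3.10.9 drew the figures.

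Probe accessions without version matched 1484 of 43603 probes to symbols in UU_Cfam_GSD_1.0. The members, gene lists and tests were chosen with earlier results of these data known. Besides the members the text names their 3 nearest genes by r, list members with an unadjusted p under 0.05 and the receptors, of which 1 is not reported here, and any other gene named was picked with its values in view. Alternatives covered the block, duplicate arrays, background, scaling, value table, filter, outlier spots, prior, threshold and left-out replicates and arrays; 2 more were added after seeing the data.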

Additional observations from a re-analysis of the deposited data

How the results depend on the processing

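CCL2, CCL7 and CCL8 kept a positive change under every alternative in which they were fitted (27, 26 and 27 of them), with 1.05 to 2.09 for CCL2, 0.69 to 3.47 for CCL7 and 1.44 to 2.23 for CCL8. Limma adjusted p over these alternatives ran from 0.00471 to 1.00 for CCL2, from 0.00552 to 1.00 for CCL7 and from 0.00223 to 1.00 for CCL8. The extremes for CCL2 and CCL8 came from leaving out a biological replicate or an array: 1.05 to 2.09 and 1.44 to 2.23, with 1.47 to 3.47 for CCL7 and 0.053 to 0.50 for CCL13. Without biological replicate 2, CCL2, CCL7 and CCL8 had the same SE of 0.36, pooled wholly over probes. With no replicate block no call was made and the estimates were as reported; the unadjusted p was 0.0313, 0.0577 and 0.0224 for CCL2, CCL7 and CCL8. Several alternatives brought a gene past an adjusted p of 0.05: all 12 arrays with the extract as a random block (1.64, 2.79 and 1.90 for CCL2, CCL7 and CCL8), normexp as given for CCL2 (1.80), the 12-array filter for CCL2 and CCL8 (1.64 and 1.90; CCL7 was not in that fit), and an intensity trend with a robust prior for CCL8 (1.90). Under that prior CCL7 had an SE of 1.21 and an unadjusted limma p of 0.125. In the fit of all 12 arrays the consensus correlation between duplicate arrays of an extract was 0.164. Duplicates were thus weighted nearly as separate replicates there, and the calls of that fit are not calls over biological replicates alone. The CCL2 pass under normexp as given (limma adjusted p = 0.0383) was lost once outlying local backgrounds were set to the array's median. CCL2 was then 1.59, with a limma adjusted p of 0.231. In the fit of normexp as given, CCL2, CCL7 and CCL8 had nearly the same SE, 0.41. CCL13, not well above background on any array, turned to -0.66 under normexp as given. The cause of these shifts was not tested.

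The number of probes called higher and lower, 0 and 0 as reported, was 396 and 294 with all 12 arrays, 10 and 4 under normexp, 17 and 7 with median scaling, 90 and 44 over the 21007 probes above background on all arrays, 126 and 70 with the trend and robust prior, and 48 and 23 at an adjusted p under 0.10. Leaving out a replicate or array gave 0 to 203 higher and 0 to 447 lower. Without the filter on dim probes, 4 of 6 receptors and 6 of 11 signal genes were higher, in place of 1 of 2 and 2 of 4. Dim spots, above all those of CCL7 in biological replicate 2, limit what can be said of size.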
